A study of Mus musculus with 4 samples.

Results

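Cluster 75 is a small group of inhibitory neurons of the mouse hindbrain. Its members are the nuclei that the authors kept after quality control, placed in their cluster 75 and annotated as neurons. It held 121 of 12539 neurons and of 39461 kept nuclei in all, and was 1 of 134 neuronal clusters. The nuclei came from a portion of the hindbrain that includes the area postrema and the nucleus tractus solitarius (NTS), and their RNA was counted as UMIs (unique molecular identifiers, 1 for each captured RNA molecule). A pair of libraries came from control mice and a pair from AgRP-Gq;POMC-Gi mice. Both groups had received clozapine-N-oxide (CNO) at 3 mg per kg 1 h before the tissue was taken, and had no food after it. AgRP-Gq;POMC-Gi mice carried AgRP-IRES-Cre+/-;hM3DGqfl/-;POMC-Dre+/-;hM4DGifl/-, so that CNO activated AgRP neurons through the Cre-dependent receptor hM3DGq and inhibited POMC neurons through the Dre-dependent receptor hM4DGi. Control samples were labelled WT, and the methods describe the study's control group as carrying both receptor alleles, hM3DGqfl/- and hM4DGifl/-, but neither AgRP-IRES-Cre nor POMC-Dre. All mice were adults of 12 to 20 weeks on a C57BL/6 background, of both sexes. Both recombinases act wherever their promoters have been active. The paper detected *Cre* RNA selectively in AgRP neurons and *Dre* RNA in POMC neurons alone, and recombination in the hindbrain was not tested here. The methods state that samples of a condition were pooled, with 2 mice per group, and do not say which mouse entered which library, so the spread between libraries may not measure that between mice.

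The area postrema and the NTS receive hormonal and vagal signals about food and the state of the gut. Their inhibitory neurons release GABA, glycine or both, and many also hold a neuropeptide. *Tnfaip8l3*, the gene proposed to mark this cluster, encodes TIPE3, a lipid transfer protein that carries phosphoinositides and thereby feeds signalling through PI3K. *Qrfprl* and *Baiap3*, the genes in the authors' name for the cluster, encode a receptor related to that of the RFamide peptide QRFP and a protein of the Munc13 family that acts in dense core vesicle traffic.

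Control replicates 1 and 2 held 16 and 21 nuclei of the cluster, and AgRP-Gq;POMC-Gi replicates 1 and 2 held 47 and 37. Their UMIs summed to 154762, 197782, 350278 and 357530 in this order, which is also the order of the 4 values given for a gene below. The median nucleus had 8007 UMIs, against 8708 in the other 12418 neurons and 2460 in oligodendrocytes. Levels are given as CPM, the UMIs of a gene among 1e+06 UMIs of the same nuclei, and a mean ± SD is over the 4 libraries except where a group is given. A level of 3 UMIs, the limit that a count of 0 allows, stood at 8.39 to 19.4 CPM in the cluster depending on the library. No barcode of the cluster was shared between libraries, whereas 19 to 36 barcodes were shared by each pair among all kept nuclei. The oligodendrocyte markers *Mog*, *Mbp* and *Mobp* summed to 58.2, 96.1, 42.8 and 61.5 CPM in the cluster, where the groups overlapped, and to 109, 89.7, 50.3 and 69.8 CPM in other neurons, where both AgRP-Gq;POMC-Gi libraries were lower. Ependymal and choroid plexus markers summed to 6.46, 1178, 5.71 and 568 CPM in the cluster, that is, they were high in both replicates numbered 2. All 3 markers of oligodendrocyte precursors stood at 0 UMIs, as did 2 of 4 of microglia (*Tmem119* and *Csf1r*), 2 of 3 of endothelium and 1 of 4 of mural cells and fibroblasts. The endothelial, and the mural and fibroblast, markers summed to no more than 5.71 and 14.0 CPM in any library. The microglial markers summed to 116, 192, 106 and 123 CPM in the cluster, mostly from *P2ry12*, and to 135 to 152 CPM in other neurons. The 4 astrocyte markers, none of them at 0, summed to 64.6, 80.9, 74.2 and 67.1 CPM, mostly from *Slc1a2*, against 80.4, 54.2, 42.5 and 59.7 CPM in other neurons, so they were higher in the cluster in 3 of 4 libraries. *Xist*, an RNA of the inactive X chromosome and so of female cells, stood at 905, 672, 791 and 83.9 CPM, so AgRP-Gq;POMC-Gi replicate 2 was apart from the other 3 libraries. The part of these library differences in the results below was not tested.

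The neuronal label held in the cluster. *Rbfox3*, which encodes a neuronal splicing factor, stood at 298 ± 34.4 CPM with a UMI in 86.8% of nuclei, against 256 CPM and 75.4% in other neurons. *Snap25*, a gene of the synaptic fusion machinery, stood at 705 ± 47.6 CPM with a UMI in 96.7% of nuclei. *Syt1*, which encodes a calcium sensor of synaptic vesicles, was lower than in other neurons, at 584 ± 80.9 CPM against 1350 CPM.

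*Tnfaip8l3* (ENSMUSG00000074345, chromosome 9 of GRCm38, 54023405 to 54068388, minus strand) was present in the cluster but neither its leading gene nor restricted to it. It had 5, 7, 15 and 13 UMIs in the 4 libraries, which gave 32.3, 35.4, 42.8 and 36.4 CPM and a mean of 36.7 ± 4.42 CPM. The 4 values lay close together but rest on few UMIs, and as means of nuclei they were 32.7, 59.2, 46.3 and 35.1 CPM. In other neurons of the same libraries the gene stood at 1.47 to 4.64 CPM. Of the 121 nuclei, 28 had a UMI, which is 23.1% (exact 95% Clopper-Pearson interval 16.0 to 31.7%). The share was 2.19% in other neurons and 0.0416% in oligodendrocytes, which gives the level of free RNA at their lower depth. After thinning to 2000 UMIs per nucleus, 11 of 120 nuclei of the cluster had a UMI (9.17%), against 0.571% in other neurons. Intervals here cover counting error only, and a nucleus without a UMI may still express the gene.

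Cluster 75 ranked 2 among the 134 neuronal clusters for *Tnfaip8l3*. The cluster that the authors named 63: Ebf2/Th was higher, at 113 ± 25.4 CPM with a UMI in 46.0% of its 139 nuclei, and its lowest library stood at 90.0 CPM, above all libraries of cluster 75. Cluster 146: Rxfp1/Ebf2 followed at 26.2 ± 22.1 CPM, and with libraries between 0 and 53.0 CPM it overlapped cluster 75. Clusters 64: Ebf3/Pax2 and 38: Kcnh8/Maf stood at 21.3 and 20.5 CPM, with libraries from 8.31 to 46.9 and from 7.13 to 26.9 CPM. Cluster 75 held 9.33% of all neurons with a *Tnfaip8l3* UMI, below the 21.3% of cluster 63 and the 10.3% of cluster 38. *Tnfaip8l3* was 1 of 4 genes of its family on this list, and *Tnfaip8* had 2 UMIs in the cluster while *Tnfaip8l1* and *Tnfaip8l2* had none. The nuclei are therefore called cluster 75 and not by this gene.

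**Figure D1:**
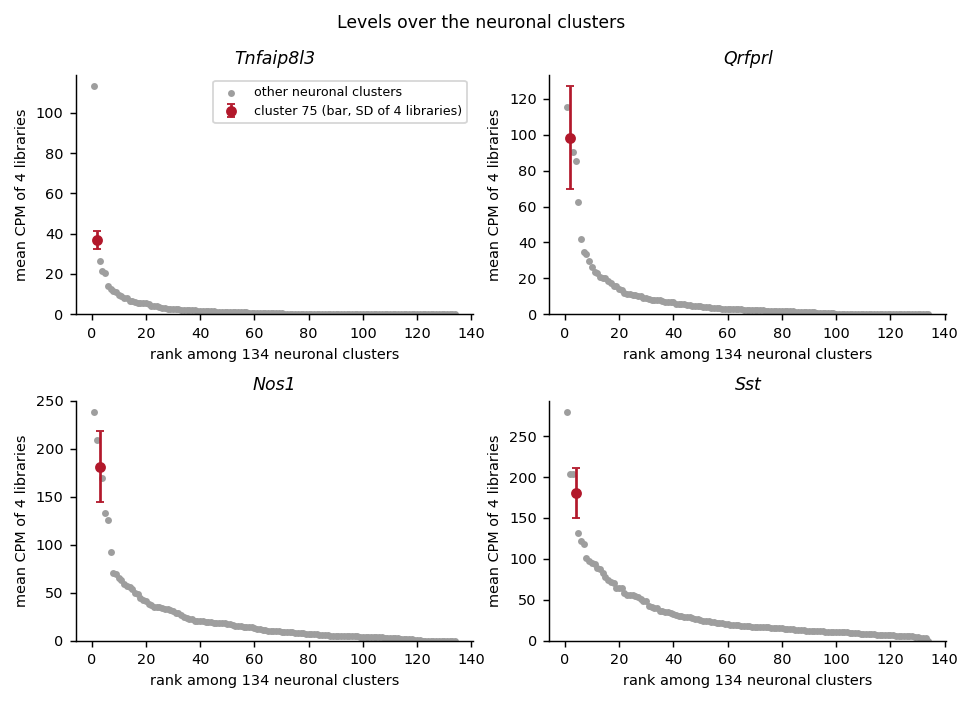
Each panel plots the mean CPM of 1 gene over 4 libraries (vertical axis) against the rank of the 134 neuronal clusters by that level (horizontal axis), with cluster 75 in red and its SD as a bar and the other clusters as grey points. Cluster 75 ranked 2 for Tnfaip8l3, 2 for Qrfprl, 3 for Nos1 and 4 for Sst, so that at least 1 other cluster was higher for each gene.

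Since clusters are built from expression, levels of the cluster against other neurons are described without a test. Counts and tests over genes were made on those with a UMI in 5% or more of the 121 nuclei, whatever their library. The AgRP-Gq;POMC-Gi libraries held more of these nuclei. A gene found only in that group therefore passed at a smaller share of its group's nuclei than a gene found only in controls. *Slc17a6* passed with 8 nuclei, at 0, 0, 4 and 4 in the libraries, and *Hbb-bs* with 7, at 0, 6, 0 and 1. Of the 11262 genes that passed, 104 stood at more than 2 times their level in other neurons in each of the 4 libraries, which is 0.923%. Conversely, 82 genes (0.728%) stood under 0.5 times that level in each library. The 20 genes with the highest ratio, among genes found in 25% or more of the nuclei and with a ratio above 1 in each library, are called the leading genes. The ratio of *Tnfaip8l3*, 12.6 (7.84 to 24.1 in single libraries), would have placed it between the second and the third of these, but too few nuclei had a UMI.

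Among secreted and surface proteins, *Adamts12*, which encodes a secreted metalloprotease (chromosome 15, 11064790 to 11349231), led the list. It stood at 129, 40.4, 79.9 and 64.3 CPM in the cluster and at 3.52 to 4.40 CPM in other neurons, a ratio of the means of 20.5. It was the only leading gene for which cluster 75 ranked 1 among the neuronal clusters, and its level in control replicate 1 was the highest of the 4. *Qrfprl* (chromosome 6, 65381105 to 65458150) stood at 136, 65.7, 99.9 and 92.3 CPM, with a ratio of 14.2, and had a UMI in 43.0% of nuclei against 3.79% of other neurons and 0.0951% of oligodendrocytes. It was at 116 ± 77.8 CPM in cluster 147: Col5a2/Col6a1 and at 85.2 ± 23.2 CPM in cluster 64, both within the spread of cluster 75. The ligand gene *Qrfp* had no UMI in the cluster, and the classical receptor gene *Qrfpr* had 5 UMIs in 2 nuclei. *Ndnf*, which encodes a secreted neurotrophic factor, had a ratio of 4.75, and *Sema3e*, a secreted guidance cue, had 1 of 4.59. *Gm4128*, with a ratio of 4.81, is annotated as an antisense RNA and lies within the span of *Sema3e* on the opposite strand. *Itga4*, an integrin subunit, and *Tspan18*, a tetraspanin, had ratios of 3.70 and 6.08.

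Among enzymes, *Nos1* (chromosome 5, 117781032 to 117958840) encodes the neuronal nitric oxide synthase. It stood at 220, 167, 203 and 137 CPM in the cluster and at 16.7 to 22.3 CPM in other neurons, a ratio of 9.32, and 52.9% of nuclei had a UMI against 10.8% of other neurons. Only clusters 111: Cartpt/Postn and 126: Tfap2b/Slc39a8 were higher, at 238 ± 34.2 and 209 ± 71.1 CPM, and their spreads overlapped that of cluster 75. The subunits of its target, soluble guanylate cyclase, were near their level in other neurons, at 21.2 against 23.1 CPM for *Gucy1a1* and 63.2 against 53.4 CPM for *Gucy1b1*. A pair of phosphodiesterases that calcium and calmodulin activate belonged to the leading genes. *Pde1a* stood at 795, 753, 916 and 889 CPM, a ratio of 5.11, with a UMI in 115 of the 121 nuclei, against 37.4% of other neurons. *Pde1c* stood at 369 ± 71.9 CPM, a ratio of 3.81. *Baiap3* (chromosome 17, 25242659 to 25256364) stood at 239, 283, 271 and 294 CPM, a ratio of 4.42, with a UMI in 87.6% of nuclei. Both genes were shared widely, since 35 other clusters stood above 0.5 times the level of cluster 75 for *Baiap3* and 19 for *Pde1a*. *Zeb2*, which encodes a zinc finger transcription factor, had a ratio of 4.38, but it and *Stard13*, a regulator of small GTPases, had a UMI in 94.2% and 68.6% of oligodendrocytes. Other leading genes were *Zfp831*, *Asb18*, *Tes*, *Klhl14* and *Mei4*, with ratios of 3.62 to 6.91, and at least 12 other clusters stood above 0.5 times the level of cluster 75 for each of them.

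**Figure D2:**
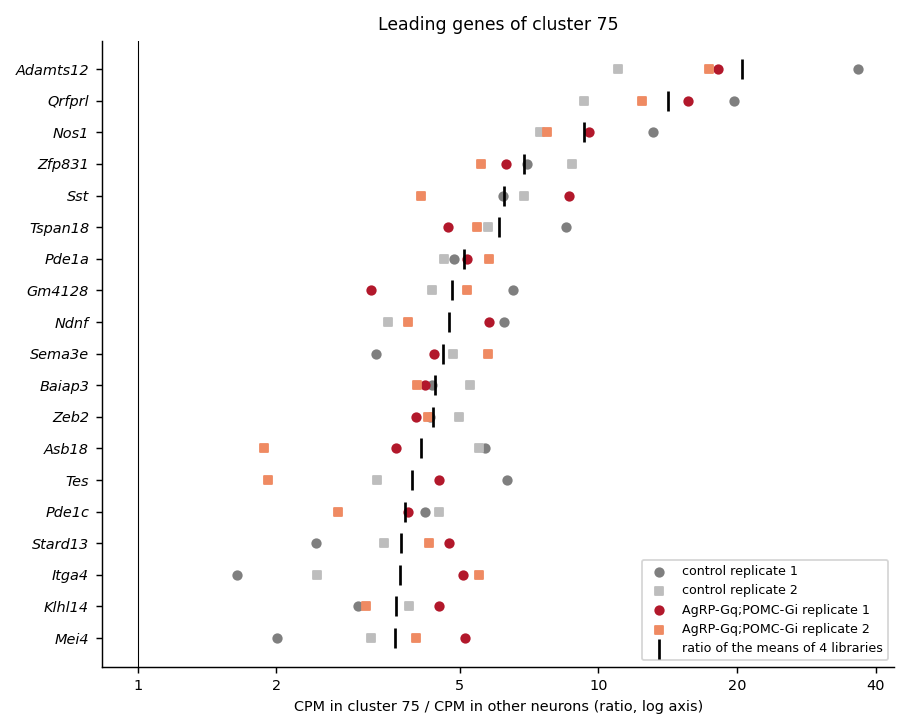
For 19 of the 20 leading genes (vertical axis) the points give the ratio of CPM in cluster 75 to CPM in other neurons in each library on a log axis, and the black line gives the ratio of the means of 4 libraries. All points lie to the right of 1, which the choice of the genes required, and Adamts12 has both the highest ratio of the means, 20.5, and a range from 11.0 to 36.7.

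The transmitter genes were those of inhibitory neurons. *Gad2*, which encodes a GABA-synthesising enzyme, stood at 220, 308, 274 and 347 CPM, 3.07 times its level in other neurons, and 79.3% of nuclei had a UMI. *Gad1*, the gene of the other such enzyme, stood at 35.0 ± 14.0 CPM, below the 50.8 CPM of other neurons. *Slc32a1*, the vesicular transporter of GABA and glycine, stood at 58.2, 45.5, 60.0 and 36.4 CPM, against 27.0 CPM. *Slc6a5*, the neuronal glycine transporter that marks glycine-releasing cells, stood at 110, 106, 137 and 115 CPM, against 82.9 CPM, and 57.9% of nuclei had a UMI against 32.5% of other neurons and 1.39% of oligodendrocytes. At least 1 of *Gad1*, *Gad2* and *Slc32a1* was counted in 107 of 121 nuclei (88.4%), and 64 (52.9%) had such a UMI together with 1 of *Slc6a5*. *Slc17a6*, the vesicular glutamate transporter of most hindbrain excitatory neurons, had 0, 0, 4 and 6 UMIs, and the 6.61% of nuclei with a UMI compares with 3.49% of oligodendrocytes. *Slc17a7* had no UMI, which allows 2.83 CPM over the 4 libraries. The catecholamine and serotonin genes *Dbh*, *Ddc*, *Tph2* and *Slc6a4* had none either, and *Th* had 5 UMIs, all in AgRP-Gq;POMC-Gi replicate 2.

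Of the 31 neuropeptide genes, 7 passed the detection minimum and 3 of these stood at over 2 times their level in other neurons in each library. *Sst* (chromosome 16, 23889573 to 23890958) encodes somatostatin and stood at 181, 212, 188 and 140 CPM, 6.24 times its level in other neurons. *Penk*, which encodes enkephalins, stood at 123, 157, 120 and 134 CPM, a ratio of 3.17. *Pnoc*, which encodes nociceptin, stood at 32.3, 40.4, 28.5 and 30.8 CPM, a ratio of 6.29. The groups overlapped for *Sst* and *Penk*, and for *Pnoc*, with 5 to 11 UMIs per library, both AgRP-Gq;POMC-Gi libraries were slightly below both control libraries. *Sst* and *Penk* were also counted as free RNA, with a UMI in 5.77% and 4.92% of oligodendrocytes, and the shares in the cluster were 41.3% and 48.8%. *Agrp*, the gene whose promoter drives Cre in these mice, stood at 84.8 ± 26.7 CPM, against 88.1 CPM in other neurons, with a UMI in 42.1 and 50.9% of nuclei and in 4.66% of oligodendrocytes. Since 131 of the other neuronal clusters stood above 0.5 times this level, its counts are not read as a sign of Cre in these nuclei. *Pomc* had 2 UMIs in 1 nucleus.

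*Sst* and *Penk* were found in partly different nuclei. Of 59 nuclei with a *Penk* UMI, 15 (25.4%) had one of *Sst*, and of 62 without, 35 (56.5%) had one. The share was lower in *Penk* nuclei in each library, at 3 of 8, 4 of 12, 4 of 18 and 4 of 21 against 5 of 8, 7 of 9, 15 of 29 and 8 of 16. Over the 4 libraries the nuclei with *Penk* were deeper, with a median of 8711 UMIs against 6900, but in control replicate 2 they were shallower, at 7483.5 against 10916. *Nos1* went the other way with *Sst*, as it was counted in 64.0% of 50 *Sst* nuclei and in 45.1% of 71 others, and its share was higher in *Sst* nuclei in each library. The *Sst* nuclei were deeper over the 4 libraries, with a median of 8785.5 UMIs against 7490, but not in AgRP-Gq;POMC-Gi replicate 2, at 9386 against 10004. For *Nos1* and *Penk* the libraries differed in direction. Any of the 3 genes was counted in 104 nuclei (86.0%). The 28 nuclei with a *Tnfaip8l3* UMI (median 9044.5 UMIs) did not stand apart for *Qrfprl*, counted in 46.4% of them and 41.9% of the 93 others (median 7595 UMIs). *Sst* was counted in 57.1% and 36.6%, *Nos1* in 64.3% and 49.5%, and *Penk* in 42.9% and 50.5% of them, with the difference in depth standing beside these shares. Only 13 nuclei had UMIs of both *Tnfaip8l3* and *Qrfprl*. Clusters were formed from expression and nuclei are not replicates, so these shares are a description.

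The clusters most like cluster 75 were 83: Agtr1b/Cntnap5b, 102: Necab1/Pde1a and 91: Pax8/Bcl11a, with Pearson r of 0.961, 0.952 and 0.949 across 9515 genes (log2 of CPM + 10, at least 50 CPM in 1 neuronal cluster). The median over the neuronal clusters was 0.905 and the lowest value 0.602, and the points share the 4 libraries. These 3 clusters were inhibitory as well, with *Gad2* at 244, 245 and 177 CPM, and *Pde1a* was at 802, 1039 and 421 CPM in the same order. Leading genes were shared too, as *Zfp831* stood at 80.2, 84.4 and 41.1 CPM in them against 80.0 CPM in cluster 75, *Asb18* at 31.3, 42.5 and 39.9 against 41.0 CPM, and *Tes* at 31.1, 44.8 and 6.15 against 45.8 CPM. *Tnfaip8l3* stood at 0, 2.63 and 0.589 CPM in them, *Qrfprl* at 19.9, 0 and 23.4 CPM, and *Nos1* at 35.2, 20.5 and 63.0 CPM. *Sst* stood at 51.1, 35.3 and 78.3 CPM, under the lowest library of cluster 75 at 140 CPM. *Tac1*, the substance P gene, was at 181 CPM in cluster 83 and at 7.70 ± 3.88 CPM in cluster 75.

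**Figure D3:**
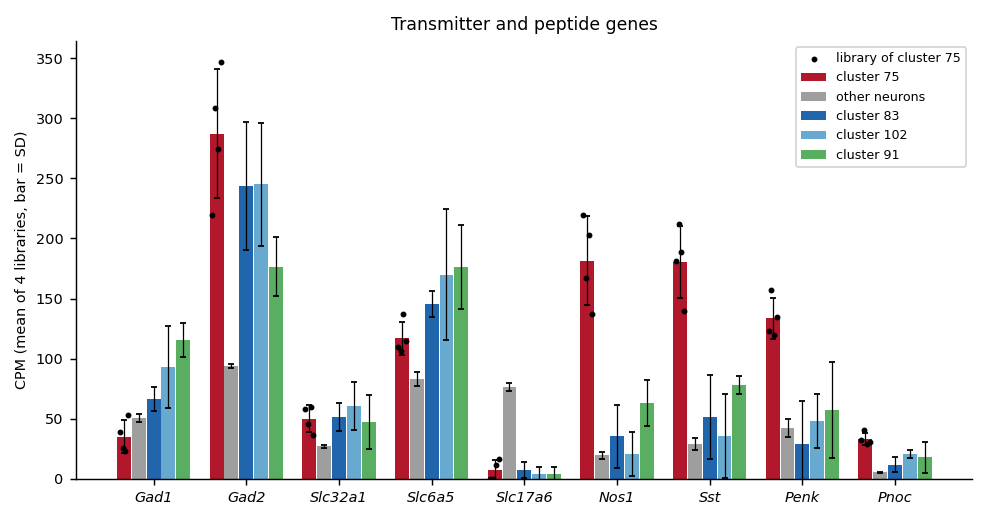
The bars give the mean CPM of 4 libraries (vertical axis, from 0) of 9 transmitter and peptide genes in cluster 75, in other neurons and in the 3 clusters most like it, with the SD as error bars and the libraries of cluster 75 as black points. Gad2 and Slc6a5 were shared with the 3 clusters, Nos1, Sst and Penk were higher in cluster 75, and Slc17a6 was low in all 4 clusters.

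Receptors and channels were described from lists of genes chosen by family. Over all genes tested, 0.923% were above 2 times and 0.728% under 0.5 times their level in other neurons in each library. Of 25 monoamine receptors, 8 passed the detection minimum, and *Adra1a*, an adrenergic receptor, was the 1 at over 2 times its level in other neurons in each library, at 136, 182, 123 and 148 CPM (ratio 3.54). *Oprm1*, the mu opioid receptor, stood at 229 ± 25.8 CPM, a ratio of 2.18, and was above 2 in not all libraries (1.93 to 2.63). Of 12 GABA-A receptor subunits that passed, *Gabrb1* at 1630 ± 183 CPM (ratio 2.63) and *Gabrq* at 8.73 ± 3.23 CPM (ratio 3.08, with 1 to 3 UMIs per library) were above 2 times in each library. Of 26 potassium channel genes, *Kcnq5*, an M-current channel, and *Kcnh1* were above it, with ratios of 3.21 and 3.62, and *Kcna1* and *Kcnh8* were under 0.5 times, with ratios of 0.155 and 0.153. The muscarinic receptor gene *Chrm2* (0.260), the kainate receptor gene *Grik1* (0.281), the sodium channel gene *Scn9a* (0.364), the vesicle priming gene *Unc13c* (0.255) and the prohormone convertase gene *Pcsk1* (0.198) were also under 0.5 times in each library. Of 11 receptors of metabolic hormones and gut peptides, only the insulin receptor gene *Insr* passed, at 106 ± 24.5 CPM against 124 CPM. Of 13 receptors of melanocortins, NPY and hypothalamic peptides 3 passed, the NPY receptor genes *Npy1r*, *Npy2r* and *Npy5r*, at 6.74, 9.14 and 21.6 CPM, with ratios between 0.896 and 2.66. A level of 3 UMIs stood at 8.39 to 19.4 CPM, above the mean of *Npy1r* and around that of *Npy2r*. These ratios thus rest on few UMIs. Of 23 genes of phosphoinositide signalling, the pathway of TIPE3, 20 passed and 1 was above 2 times in each library, *Pip5k1b*, a kinase that makes PI(4,5)P2, at 291, 288, 354 and 330 CPM (ratio 2.72). *Pik3ca*, the catalytic subunit of PI3K, stood at 92.5 ± 2.46 CPM against 92.3 CPM.

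Transcription factors of the hindbrain lineages were mostly low. Of 53 such genes 9 passed the detection minimum and 29 had no UMI. *Pax2*, a factor of inhibitory lineages, stood at 85.1 ± 19.2 CPM, 1.42 times its level in other neurons, and *Zic1* at 53.2 ± 13.2 CPM, 2.36 times. *Foxp2*, at 12.8 ± 4.87 CPM, was under 0.5 times its level in other neurons in each library. *Ebf1*, *Meis1* and *Meis2*, which other neurons held at 534, 206 and 356 CPM, stood at 8.63, 12.2 and 18.2 CPM. They were among the 10 genes with the lowest ratio, of those found in 25% or more of other neurons and with a ratio under 1 in each library. *Tmem163*, a zinc transporter gene and another of these 10, had 2 UMIs in the cluster against 127 CPM in other neurons. The low levels were shared with clusters 83, 102 and 91, those most like cluster 75. In that order *Ebf1* stood at 12.2, 25.6 and 51.2 CPM and *Meis1* at 5.49, 8.34 and 24.9 CPM. *Meis2* stood at 15.5, 20.2 and 21.8 CPM and *Tmem163* at 4.20, 4.72 and 10.7 CPM. Of 23 Hox genes 11 passed, and none was over 2 times or under 0.5 times its level in other neurons in each library. This is near the shares over all genes tested, 0.923% and 0.728%.

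The comparison of the groups asks what the combined change of AgRP and POMC neuron activity altered in these nuclei. A larger share of neurons fell in cluster 75 in both AgRP-Gq;POMC-Gi libraries, without a difference that passed a test. The share was 0.648% (0.371 to 1.05%) and 0.768% (0.476 to 1.17%) in the control libraries and 1.27% (0.936 to 1.69%) and 1.02% (0.717 to 1.4%) in the AgRP-Gq;POMC-Gi libraries, with exact 95% Clopper-Pearson intervals. The means were 0.708 ± 0.0847% and 1.14 ± 0.180% (SD, n = 2 each), a ratio of 1.62. An exact two-sided permutation test over the 4 libraries gave p = 0.333, the smallest that 6 regroupings allow. Over the 134 neuronal clusters, both AgRP-Gq;POMC-Gi libraries were above both control libraries in 24.6% of clusters and below them in 13.4%. In edgeR's quasi-likelihood test of nuclei per cluster, cluster 75 differed by 0.75 on the log2 scale (SE 0.46, adjusted p = 0.730). That test called 0 clusters in either direction (0%), with 9 at an unadjusted p under 0.05. Neurons themselves were 25.4% and 27.2% of the control nuclei and 38.0% and 36.5% of the AgRP-Gq;POMC-Gi nuclei, so of all kept nuclei the cluster was 0.165, 0.209, 0.483 and 0.371%. A larger share of nuclei in a dissected piece and a different cut of the tissue cannot be told apart in these libraries.

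**Figure D4:**
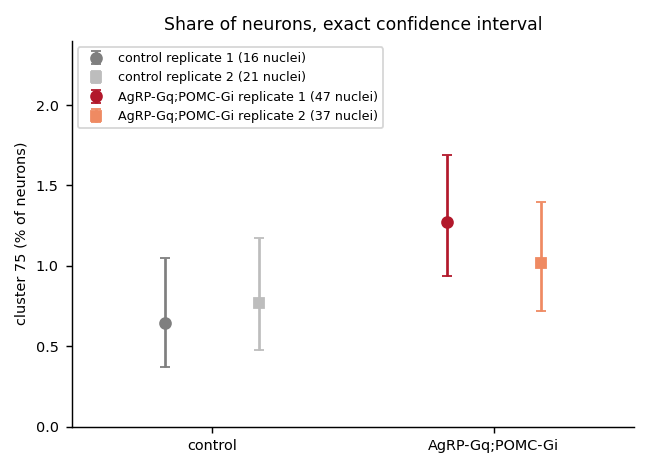
The share of neurons in cluster 75 in percent (vertical axis) is plotted for each library, with the exact 95% Clopper-Pearson interval as a bar. The AgRP-Gq;POMC-Gi libraries stand at 1.27% and 1.02%, above the control libraries at 0.648% and 0.768%, while the intervals overlap.

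Within the cluster, few genes were called between the groups. UMIs were summed per library and tested with edgeR's quasi-likelihood test (n = 2 libraries per group, Benjamini-Hochberg adjustment over 11262 genes, threshold 0.05). It called 7 genes higher (0.0622%) and 3 lower (0.0266%) in AgRP-Gq;POMC-Gi, with 621 genes at an unadjusted p under 0.05. The median change over all genes was 0.04 on the log2 scale. The detection minimum passes genes found only in AgRP-Gq;POMC-Gi more easily, and without a filter edgeR called 7 genes higher and 2 lower. The main fit took the spread between libraries from all genes together, since no gene had a finite prior weight. A gene's own difference between replicates therefore did not enter its p-value. DESeq2 called 0 genes, with 53 at an unadjusted p under 0.05, and edgeR called 0 of the 5316 genes that its own filter left. The 10 calls are therefore given with their libraries.

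*Zfp804b*, a zinc finger gene (chromosome 5, 6769010 to 7344756), had 13, 16, 56 and 127 UMIs, which gave 84.0, 80.9, 160 and 355 CPM. It was higher in both AgRP-Gq;POMC-Gi libraries, by 1.70 on the log2 scale (SE 0.30, adjusted p = 0.000123, edgeR), and by 1.07 and not called without AgRP-Gq;POMC-Gi replicate 2. In AgRP-Gq;POMC-Gi replicate 2, 36 of the 127 UMIs came from 1 nucleus, and the shares of nuclei with a UMI, 18.8, 38.1, 27.7 and 29.7%, overlapped between the groups. In other neurons the gene was higher than in the cluster, at 600 to 702 CPM. *Thsd7b*, which encodes a thrombospondin repeat protein (chromosome 1, 129273302 to 130219278), had 43, 62, 221 and 232 UMIs, which gave 278, 313, 631 and 649 CPM. The difference was 1.17 (SE 0.22, adjusted p = 0.000823, edgeR), the replicates lay close together, and the share of nuclei with a UMI was also higher, at 78.7 and 78.4% against 68.8 and 66.7%. It was the only one of the 10 genes that was called with each library left out in turn. *Sorcs1*, a sorting receptor gene (chromosome 19, 50143299 to 50678646), stood at 310, 440, 214 and 145 CPM and was lower in AgRP-Gq;POMC-Gi (by -1.0, SE 0.24, adjusted p = 0.0314, edgeR). It was not called without control replicate 2 (-0.73) or without AgRP-Gq;POMC-Gi replicate 2 (-0.70). The gene had a UMI in 57.0% of the nuclei and in 71.0% of oligodendrocytes, whose markers had a median change of -0.55 in the cluster, and the part of this in the result was not tested.

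The other 5 genes that were higher also did not overlap between the groups, although the replicates of a group often lay far apart. *Rarb*, a retinoic acid receptor, stood at 6.46, 60.7, 74.2 and 207 CPM and changed by 1.99. Of its UMIs, 27 of 74 in AgRP-Gq;POMC-Gi replicate 2 and 8 of 12 in control replicate 2 came from 1 nucleus each. With control replicate 1 left out it changed by 1.27, and with AgRP-Gq;POMC-Gi replicate 2 left out by 1.13, neither of them called, whereas without control replicate 2 it changed by 4.40. *4930587E11Rik* stood at 64.6, 10.1, 114 and 112 CPM and changed by 1.77. It was called in only 1 of the 4 fits that left out a library, that without control replicate 1 (3.50), and changed by 0.86 without control replicate 2. *Tenm3*, a teneurin that guides synaptic partners, stood at 291, 344, 537 and 655 CPM and changed by 0.96, with 91 of the 234 UMIs of AgRP-Gq;POMC-Gi replicate 2 in 1 nucleus, and was called in only 1 of these 4 fits, that without control replicate 2 (1.09). *Trpm3*, a cation channel, stood at 911, 910, 1288 and 1944 CPM and changed by 0.88, or by 0.62 and not called without AgRP-Gq;POMC-Gi replicate 2. *Galntl6*, a glycosyltransferase-like gene, stood at 2578, 1173, 3300 and 2666 CPM and changed by 0.74. It changed by 0.27 without control replicate 2 and by 0.54 without AgRP-Gq;POMC-Gi replicate 1, neither of them called, and by 1.42 without control replicate 1. In other neurons the means of the AgRP-Gq;POMC-Gi and control libraries were 105 and 68.1 CPM for *Rarb* and 830.5 and 685 CPM for *Trpm3*. They were 137 and 126 CPM for *4930587E11Rik*, 580 and 587 CPM for *Tenm3*, and 2004 and 1971 CPM for *Galntl6*. The change of none of these 5 genes was shown to differ from that in other neurons by edgeR's test of that difference (adjusted p = 0.109 to 0.711). Within cluster 75, both AgRP-Gq;POMC-Gi libraries were above both control libraries for 15.8% of all genes tested and below them for 18.1%, against 8 of the 10 called genes. The 10 were chosen by a test of the same difference in the same libraries, which favours such a separation.

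The groups overlapped for the remaining called genes. *Ttr*, the transthyretin gene of the choroid plexus, had 0, 232, 1 and 202 UMIs, and a UMI was found in 21 of 21 and 37 of 37 nuclei of the replicates numbered 2. In other neurons it stood at 1002 and 580 CPM in these libraries and at no more than 7.58 CPM in the others. *Hbb-bs*, a haemoglobin gene of red blood cells, had 0, 17, 0 and 1 UMIs, and 12 of the 17 came from 1 nucleus. The fitted differences of -1.06 and -4.60 turned positive without control replicate 2. Without AgRP-Gq;POMC-Gi replicate 2, which was apart for *Xist*, *Thsd7b*, *Galntl6*, *Ttr* and *Hbb-bs* remained of the 10 genes. Without control replicate 2, edgeR called 21 genes, 6 of them among the 10, with *Ttr* then in the opposite direction.

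**Figure D5:**
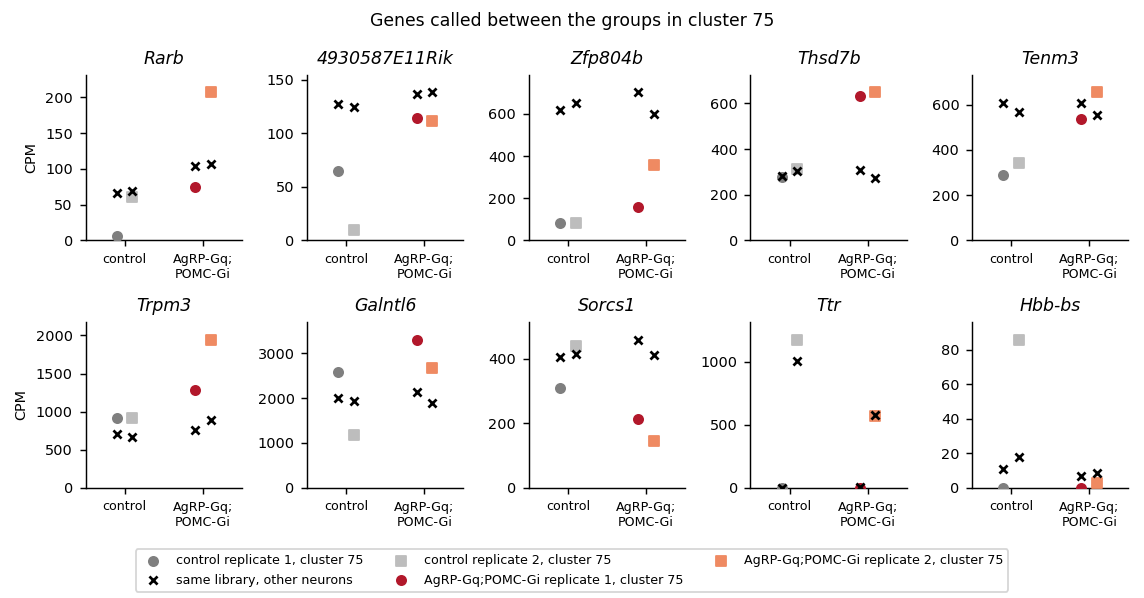
Each panel plots CPM (vertical axis, from 0) of a gene called between the groups, with cluster 75 as coloured points, 1 per library, and other neurons of the same library as black crosses. Thsd7b has 278 and 313 CPM in the control libraries and 631 and 649 CPM in the AgRP-Gq;POMC-Gi libraries, whereas Ttr is high in both replicates numbered 2 and Hbb-bs mainly in control replicate 2.

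The difference in cluster 75 was then compared with that in other neurons, in 1 fit over both with the library as a block. edgeR called 2 genes higher (0.0178%) and 1 lower (0.00888%) in this interaction, with 570 at an unadjusted p under 0.05. *Zfp804b* and *Thsd7b* rose more in the cluster than in other neurons, by 1.61 (SE 0.31, adjusted p = 0.00187, edgeR) and 1.14 (SE 0.22, adjusted p = 0.00187, edgeR). Without AgRP-Gq;POMC-Gi replicate 2 the value of *Zfp804b* was 0.82 and without replicate 1 of that group 2.21. The difference of *Sorcs1* in the cluster minus that in other neurons was -1.16 (SE 0.24, adjusted p = 0.0065, edgeR). The unadjusted p-values of the 3 called genes were near those of a normal distribution for the difference over its SE. A gene's own difference between replicates therefore entered them little, as in the fit within the cluster. In other neurons *Thsd7b* stood at 282, 303, 307 and 272 CPM and *Sorcs1* at 407, 415, 459 and 412 CPM, without a separation of the groups. *Adamts19*, a metalloprotease gene, at 64.6, 116, 40.0 and 16.8 CPM, and *Tenm3* followed by p but were not called (adjusted p = 0.106 and 0.109, edgeR). No gene was called in the interaction without AgRP-Gq;POMC-Gi replicate 2, and DESeq2 called 0, with 152 at an unadjusted p under 0.05.

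None of the 20 leading genes was called between the groups, and their median change was -0.02. Of all genes tested, 0.0622% were called higher and 0.0266% lower, so 0 of 20 is near that share. *Tnfaip8l3* differed by 0.28 (SE 0.54, adjusted p = 0.986, edgeR) and *Qrfprl* by 0.05 (SE 0.34, adjusted p = 0.990, edgeR). *Itga4* had the largest change of the 20, 1.42, at 25.8, 40.4, 77.1 and 97.9 CPM (adjusted p = 0.310, edgeR). It had a UMI in 12.5 and 19.0% of control nuclei and in 34.0 and 32.4% of AgRP-Gq;POMC-Gi nuclei. This gene thus passed the 25% minimum of the leading genes through the group where it was higher, so its change is not independent of that choice. *Stard13* stood at 129, 162, 228 and 243 CPM (adjusted p = 0.549, edgeR). Of the 10 immediate early genes (IEGs) that the study used as markers of neuronal activity, 4 passed the detection minimum and none was called, with a median change of -0.22. *Fos* had 0, 0, 0 and 1 UMIs in the cluster, and *Junb* had 1, 0, 0 and 4. *Homer1* stood at 51.7, 65.7, 37.1 and 55.9 CPM, with a change of -0.29 (SE 0.44, adjusted p = 0.986, edgeR). *Jun* stood at 19.4, 25.3, 8.56 and 8.39 CPM, with 3 to 5 UMIs per library (-1.31, SE 0.86, adjusted p = 0.986, edgeR). That no IEG was called does not show that the groups did not differ.

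Over all gene lists, 233 of 435 genes were tested between the groups, 0 were called higher and 1, *Ttr*, lower, and their median change was 0.06 against 0.04 over all genes tested. With the replicate number as a block *Ttr* was not called (-0.99, adjusted p = 0.152, edgeR). The medians of the GABA, nitric oxide and neuropeptide lists were 0.31, -0.10 and -0.20, with none of their 4, 3 and 7 tested genes called. The glutamate list had 2 tested genes, with changes of -0.32 and 4.97, neither called. The larger was that of *Slc17a6*, at 0, 0, 4 and 6 UMIs, which passed the detection minimum through AgRP-Gq;POMC-Gi nuclei only. None of the 3 oligodendrocyte markers was called. Lists this small would mostly hold 0 called genes at the shares over all genes, 0.0622% higher and 0.0266% lower.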

How the data were processed

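The authors prepared libraries from sorted nuclei with the 10x Genomics 3′ kit, counted UMIs with Cell Ranger 7.0.0 on GRCm38 (mm10) and clustered with Seurat 4.3.0, as their processing notes name these tools. They deposited the UMI counts of each library and a table of nuclei with totals, cluster and cell type; clusters were taken from it. The table also holds an IEG score per cluster, which is a comparison of the authors and was not used. Per the methods, nuclei had at least 800 UMIs, 500 genes and at most 10% mitochondrial RNA, doublets were detected, and IEGs were left out of the genes used for clustering.

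The totals of UMIs and genes in that table equalled those of the matrices for all 44303 barcodes, and its percent of mitochondrial UMIs per nucleus, computed by the authors, served as a check only. Counts were summed per library and tested with edgeR 4.0.16 (quasi-likelihood, TMM) in R 4.3.3. The alternatives were no TMM factors, DESeq2 1.42.0, no filter, filterByExpr, a replicate block, each library left out and, chosen after seeing the data, limma-voom (limma 3.58.1). The study's own mixed model for groups was not used here. Shares were thinned to 2000 UMIs (seed 1). Positions are those of GENCODE M21, matched by identifier for 32235 of 32285 genes. Python 3.11.15 (numpy 2.4.6, pandas 2.3.3, scipy 1.17.1, matplotlib 3.10.9) made the tables and plots.

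The members, the 38 gene lists (436 entries) and the tests were chosen with earlier results of these data known. Genes named are *Tnfaip8l3*, *Qrfprl*, *Baiap3*, list genes, the 20 leading genes, up to 15 called genes per direction, the 5 smallest p of the interaction and the study's IEGs. Some genes of the lists and of the leading genes are not reported here. *Xist*, *Ebf1*, *Meis1*, *Meis2* and *Tmem163* were named after their values were seen where no list holds them. Replicates differed beyond sampling noise (chi-square over genes per degree of freedom 1.53 in controls and 1.67 in AgRP-Gq;POMC-Gi) and were kept apart.

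On counts simulated from cluster 75, edgeR called 84% of 200 genes changed 4-fold, with 4 false calls, and 17% of 200 changed 2-fold, with 1, over 11262 genes. For the interaction it called 68% and 1%, and for nuclei per cluster 25% of 20 clusters changed 4-fold and 0% changed 2-fold. Most 2-fold changes would thus not be called. The changed genes and clusters were drawn from those with a mean count at or above the median. Each simulation gave all genes or clusters the same spread between libraries. It therefore does not show the share called at lower counts, or the false calls where replicates differ more.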

Additional observations from a re-analysis of the deposited data

Results flagged for a closer look

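For 3 genes the difference between AgRP-Gq;POMC-Gi and control libraries was not the same in cluster 75 as in other neurons, by edgeR's interaction test with an adjusted p under 0.05. The difference in the cluster minus that in other neurons was 1.61 for *Zfp804b*, 1.14 for *Thsd7b* and -1.16 for *Sorcs1* on the log2 scale. For *Zfp804b* it was 0.82 without AgRP-Gq;POMC-Gi replicate 2 and 2.21 without replicate 1 of that group. These calls were made at n = 2 libraries per group and were lost without AgRP-Gq;POMC-Gi replicate 2, without control replicate 2, with DESeq2 and with limma-voom, each of which kept the direction of all 3 genes. Groups of 2 libraries are too small for a check for single outlying samples.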

How the results depend on the processing

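The count of genes called between the groups in cluster 75, 10 in edgeR, was 6 without TMM factors, 0 with DESeq2 and 0 with filterByExpr. Leaving out 1 library gave 8 to 21 genes, the highest without control replicate 2. limma-voom, added after seeing the data, called 11, of which 8 were among the 10, and without a filter 9 were called. The 3 genes of the interaction became 0 with DESeq2 and 0 with limma-voom. With 1 library left out they were 0 to 4, with 0 without AgRP-Gq;POMC-Gi replicate 2. Without control replicate 2 a different set of 3 genes was called. Without control replicate 1 only *Sorcs1*, and without AgRP-Gq;POMC-Gi replicate 1 only *Thsd7b* and *Zfp804b*, remained of the 3.

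Replicate numbers were not shown to pair the libraries, since same-numbered deviations correlated at 0.0115 in the cluster and 0.221 in other neurons and only 2 pairs exist. With the replicate number as a block, 10 genes were called between the groups, 9 of them shared (all but *Ttr*), 3 genes in the interaction, all shared, and the share of neurons differed by 0.74 on the log2 scale (adjusted p = 0.919, edgeR). The share did not pass the threshold under any of the 8 alternatives, with differences of 0.51 to 0.87.

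The level of *Tnfaip8l3* was 43.3 ± 12.1 CPM as a mean of nuclei, and 9.17% of nuclei had a UMI after thinning. Leaving out 1 library gave 34.7 to 38.2 CPM and 22.9 to 23.8%. With 1 library left out, the difference of *Ttr* ranged from -7.37 to 9.35 and that of *Hbb-bs* from -6.42 to 2.09, both positive without control replicate 2. That of *Btg1* ranged from -0.55 (without control replicate 2) to 1.58 and that of *1700016P03Rik* from -0.65 to 0.19 (without AgRP-Gq;POMC-Gi replicate 1). Of the other values of single genes, 113 kept direction and side of the threshold and 58 kept the direction but were no longer called. The 113 include values of *Tnfaip8l3* and the tested IEGs, which were not called in the main fit. They are therefore not a count of calls that were kept. Apart from the fewer genes or libraries that an alternative uses, the cause was not tested. With 1 library left in a group, its spread is assumed to be that of the other group.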
